A study of Mus musculus with 12 samples.

Results

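The genes described here are 44 genes that dividing cells switch on to copy their DNA, to separate the chromosomes and to split. They were taken by symbol from a fixed list of S, G2 and M phase genes, by their role and with no threshold on a measured value, though the list was drawn up with earlier results of these data known. All 44 had a row among the 43280 gene rows of the count table. To ask how early life stress acts on the developing hypothalamus, the study compared male C57/Bl6 mouse pups at postnatal day 6 (P6), 6 from the control group and 6 that underwent modified maternal separation (MMS). On each of a few consecutive days the MMS pups spent a session away from the dam on a heating pad, where they were turned onto their backs again whenever they righted themselves. The hypothalamus was dissected by brain landmarks right after the last session, and 1 library of 3' mRNA reads was made per pup. As the study describes it, each litter gave males to both groups, so a control and an MMS pup may be brothers, which the labels do not record. P-values measure the spread between these 12 libraries.

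A cell that enters the cycle makes the proteins of DNA replication first, then the mitotic cyclins with their kinase, and then the proteins of the spindle, the kinetochores and the cleavage furrow. The transcripts of the last groups peak shortly before and during mitosis and are nearly lost in resting cells, so that they are widely used as marks of proliferation. Most hypothalamic neurons are made before birth, while glial precursors, endothelial cells and microglia, and some cells along the third ventricle, go on dividing in the pup. A whole hypothalamus holds few dividing cells among many resting ones, and in such bulk tissue fewer dividing cells and less RNA per dividing cell cannot be told apart.

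Library totals ran from 3765759 to 6560620 counts in controls and from 3218777 to 5344080 counts in MMS pups. The 44 genes together took 0.0329% to 0.0374% of the counts of a control library and 0.029% to 0.0442% of those of an MMS library. Some hypothalamic genes were read in all 12 libraries, with oxytocin (Oxt) between 103 and 427 CPM and the transcription factor Otp between 46.1 and 98.7 CPM. Pmch, the precursor of melanin-concentrating hormone, lay between 195 and 929 CPM. Some other hypothalamic markers ran lower, with Agrp between 0 and 34.3 CPM, Ghrh between 2.42 and 22.7 CPM and Pomc between 3.19 and 41.8 CPM. CPM are counts scaled to a common library total. The kit reads only the 3' end, so long and short transcripts yield similar reads per molecule. Levels of different genes are still compared only roughly, since the annotation and strand setting of the counting were not given.

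The libraries MMS 2 and MMS 4 differed from the other 10 in cell type markers. The 9 markers of young neurons, such as Dcx, summed to 2474 CPM in MMS 2 and 2609 CPM in MMS 4, against 4336 to 5668 CPM in the other 10. Of the 9, 5 were below the other 10 libraries in both (Dcx, Sox4, Sox11, Stmn1 and Tubb3) and 0 above. The share of all genes below or above in both was not counted. Tubb3 alone held 1280 CPM in MMS 2 and 1307 CPM in MMS 4, against 2069 to 3461 CPM. Ependymal markers summed to 18.5 CPM and 38.7 CPM in MMS 2 and MMS 4, against 68.4 to 162 CPM. Markers of radial glia, tanycytes and progenitors summed to 2005 CPM and 2045 CPM there, above the 1416 to 1852 CPM of the other 10, but that list split. Fabp7, Slc1a3 and Pax6 were above the other 10 in both libraries, with Fabp7 at 945.8 CPM and 1013 CPM against 529.3 to 754.2 CPM. Hes5 and Rax were below, with Hes5 at 166.8 CPM and 158.6 CPM against 248.4 to 367.6 CPM and Rax at 0 in both. Control 3 carried 1779 CPM of choroid plexus markers, where the other 11 libraries held at most 45.2 CPM. The results that rest on MMS 2 and MMS 4 are given with and without both, and the part of these marker shifts in the results was not tested.

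The level of the cell division genes was low. Mean levels over the 12 libraries ran from 0.795 CPM for Bub1, a kinase of the spindle checkpoint, to 35.8 CPM for Mcm6, a subunit of the replicative helicase. The median member stood at a mean of 30 counts per library, and 36 of the 44 passed the count filter and were tested. Over those 36 the median of the mean CPM was 8.23, against 25.5 for all genes tested, and 22.5% of all genes tested had a lower mean than that. Replication genes and Top2a led the order. Behind Mcm6 came Pcna with a mean of 27.4 CPM, Top2a with 21.4 CPM and Rrm1 with 21.3 CPM, and the largest mean of a mitotic spindle or cytokinesis gene was the 14.6 CPM of Racgap1.

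The 8 genes not tested were Bub1, Aurkb, Kif2c, Hmmr, Kif20a, Kif20b, Kif23 and Ect2, with means of 3.83 to 10.6 counts per library. All act in mitosis or cytokinesis, and none belongs to DNA replication. Bub1 was at 0 counts in control 4 and in MMS 3, which allows up to 0.688 CPM and 0.908 CPM in those libraries if the limit is set at 3 counts. Kif20b, a kinesin of cytokinesis, was at 0 in control 6 and MMS 6, and Aurkb, the kinase of the chromosomal passenger complex, in MMS 5.

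No cell division gene differed between the groups past the threshold. Of the 36 tested, 0 passed an adjusted p of 0.05 (edgeR's quasi-likelihood test, Benjamini-Hochberg adjustment over 13104 genes), as did 0% of all genes tested. The lowest adjusted p among them was 0.518. Only Pcna, 1 of 36, had an unadjusted p under 0.05, on the side of higher levels. Of all genes tested 9.08% had such a p, 4.68% with higher and 4.4% with lower levels under MMS. The fitted change was above 0 for 16 genes and below 0 for 20, against 50.1% of all genes tested above 0 and 49.9% below. The median log2 fold change (MMS relative to control) was -0.05, and that over all genes tested was 0.00091. In 0 of the 44 genes did the 6 MMS libraries lie wholly above or wholly below the 6 controls, as they did for 0.389% of all genes tested.

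The intervals show how large a change these libraries leave room for. For 32 of the 36 genes the 95% interval of the fold change lay within 2-fold in either direction, as it did for 89.3% of all genes tested, and for 9 it lay within 1.5-fold. A doubling was outside the interval of 35 genes and a fall to 50% outside that of 33. The interval reached past 2-fold for Ccnb2 on the upper side and for Aurka, Mki67 and Kif11 on the lower side. Its half-width had a median of 0.51 log2 units, against 0.357 over all genes tested, and the narrowest was 0.311. These intervals are of single genes and cover the spread between libraries.

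**Figure D1:**
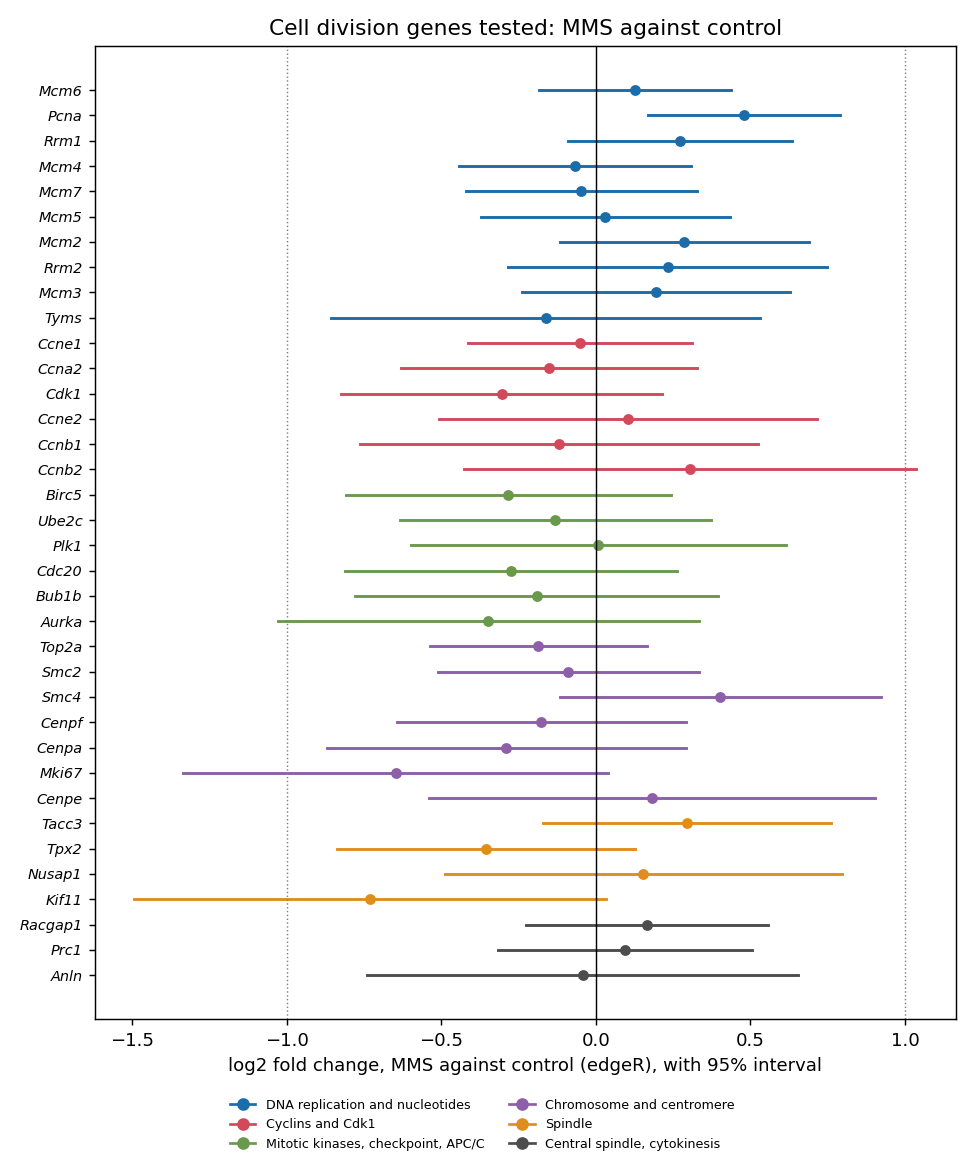
Log2 fold change of MMS against control (horizontal axis) with its 95% interval for the 36 cell division genes tested, colored by role, with dotted lines at a 2-fold change either way. The interval of Pcna alone lies clear of 0, and those of Ccnb2, Aurka, Mki67 and Kif11 reach past a dotted line.

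The members share letters in their promoters that the choice of genes did not use. RefSeq promoter windows of 300 bases (250 before to 50 after the RefSeq gene start, build GRCm38.p6) were found for 37 of the 44, and were searched on both strands. The RefSeq start can differ from the start in the GENCODE gene positions printed here. CCAAT, the letters bound by NF-Y, was in 78.4% of the 37 and in 37.9% of the 27025 windows of the whole table. The cell cycle homology region (CHR), searched as TTTGAA or TTTAAA and known as the element read by the DREAM and MuvB complexes, was in 75.7% of the members and 27.8% of all windows. The E2F site was searched as TTGGCGC or TTCGCGC or TTCCCGC or TTGCCGC, and at least 1 of these was in 32.4% of members and 9.7% of all windows. These letters may overlap each other in a window, and a match describes the sequence only.

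The roles differed in which letters they held. Of the 9 replication genes with a window, 6 held E2F letters and 3 a CHR. Of the 28 other members with a window, 25 held a CHR and 6 held E2F letters. CCAAT was in 8 of the 9 and in 21 of the 28. TTTGAA, the more frequent form of the CHR, was in 1 of the 9 replication windows, that of Mcm2, and in 21 of the 28 others.

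DNA replication and nucleotide supply was the group with the most values above 0. The fitted change was above 0 for 7 of its 10 genes and below 0 for 3, with a median log2 fold change of 0.16. Pcna, the sliding clamp that holds DNA polymerase on its template, was read at chr2:132249162-132253314 (mm10, minus strand). Control libraries held 19.7, 23.7 and 24.7 CPM of Pcna as lowest, median and highest value, and MMS libraries 22.0, 32.2 and 39.8 CPM. MMS 5 lay within the control range and the other 5 MMS libraries above every control, with MMS 2 highest and MMS 4 next. The mean was 22.8 ± 2.19 CPM in controls and 31.9 ± 6.46 CPM under MMS (SD, n = 6 each). The log2 fold change was 0.48 (SE 0.149, 95% interval 0.17 to 0.79), and the edgeR adjusted p was 0.518. Leaving out 1 library at a time gave log2 fold changes of 0.42 to 0.58, and without both MMS 2 and MMS 4 the value was 0.32.

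The promoters of Pcna and Mcm6, the 2 most abundant members, are shown because they differ in the letters held. Capitals mark CCAAT on either strand and the E2F letters. Pcna (GRCm38.p6, chr2:132253131-132253430, minus strand) held a single CCAAT, read as ATTGG, no CHR and none of the E2F letters searched. Mcm6 (chr1:128359656-128359955, minus strand) held 2 CCAAT and 5 matches to the E2F letters, of which 4 overlap in pairs within TTGGCGCGAA, since TTGGCGC and the reverse complement of TTCGCGC share their inner bases.
Pcna: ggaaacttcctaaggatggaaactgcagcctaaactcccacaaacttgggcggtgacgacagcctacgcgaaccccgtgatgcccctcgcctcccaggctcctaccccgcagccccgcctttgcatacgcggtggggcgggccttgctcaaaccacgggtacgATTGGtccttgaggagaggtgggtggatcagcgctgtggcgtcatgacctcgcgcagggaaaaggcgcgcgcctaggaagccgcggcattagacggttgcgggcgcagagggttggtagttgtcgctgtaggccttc
Mcm6: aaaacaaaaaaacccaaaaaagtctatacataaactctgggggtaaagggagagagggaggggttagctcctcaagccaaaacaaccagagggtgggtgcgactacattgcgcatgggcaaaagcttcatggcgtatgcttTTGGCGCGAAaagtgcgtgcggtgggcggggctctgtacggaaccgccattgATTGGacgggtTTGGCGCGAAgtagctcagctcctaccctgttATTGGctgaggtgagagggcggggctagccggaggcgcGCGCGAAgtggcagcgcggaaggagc

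Mcm6 (chr1:128331590-128359664, minus strand) had 29.4, 33.6 and 41.1 CPM as lowest, median and highest control value. In MMS libraries the 3 values were 27.7, 36.1 and 49.4 CPM. MMS 2 and MMS 3 exceeded every control, MMS 6 was below every control, and the groups overlapped. The means were 34.2 ± 3.92 CPM and 37.3 ± 8.92 CPM (SD, n = 6 each), and the log2 fold change was 0.13 (± 0.1497 SE, adjusted p = 0.793 by edgeR). Without both MMS 2 and MMS 4 it was -0.03.

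The other subunits of the MCM2-7 helicase did not share a direction. Mcm2 stood above every control in 5 MMS libraries and below every control in MMS 4, with 8.64 to 11.6 CPM in controls and 7.27 to 14.7 CPM under MMS. Its log2 fold change was 0.29 (± 0.194 SE, adjusted p = 0.633 by edgeR), and 0.42 without both MMS 2 and MMS 4. Mcm3 had a log2 fold change of 0.20, Mcm5 one of 0.03, Mcm7 one of -0.05 and Mcm4 one of -0.07. Mcm4 and Mcm5 spread more widely among MMS pups than among controls. For both, 2 MMS libraries lay above and 2 below the whole control range, with Mcm5 between 10.3 and 13.3 CPM in controls and between 7.49 and 14.5 CPM under MMS. Mcm7 shares its 3' end with Cops6 on the opposite strand, and whether the counting used strand is not stated.

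The enzymes that supply deoxynucleotides split by library. Rrm1, the large subunit of ribonucleotide reductase, was at 30.6 CPM in MMS 2 and 31.0 CPM in MMS 4, above the 16.01 to 22.01 CPM of the controls. Its log2 fold change was 0.27 (± 0.175 SE, adjusted p = 0.620 by edgeR), and 0.00648 without both. Rrm2, the small subunit, reached 13.5 CPM in MMS 4 and had 4.32 CPM in MMS 5, outside the control range of 5.27 to 8.33 CPM on both sides. Its log2 fold change of 0.23 became -0.07 without both MMS 2 and MMS 4. Tyms, thymidylate synthase, had values between 1.93 and 8.33 CPM and a log2 fold change of -0.16.

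Summed over the 10 replication genes, controls lay close together at 135 to 149.6 CPM and MMS libraries ran from 133.6 to 196.6 CPM. The means were 141.3 ± 5.18 CPM and 160.8 ± 24.7 CPM (SD, n = 6 each), a ratio of 1.14. MMS 2 at 196.6 CPM, MMS 4 at 178.8 CPM and MMS 3 at 169.6 CPM lay above every control, and the other 3 MMS libraries were within or just below the control range. Without both MMS 2 and MMS 4 the MMS mean was 147.4 ± 15.6 CPM (n = 4), and the median log2 fold change of the group was -0.04. The share of replication genes in the summed level of all 44 was 37.9% to 44.2% in controls and 42.1% to 48.1% in MMS libraries, with 47.2% in MMS 2 and 48.1% in MMS 4. Their part in the difference was not tested.

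**Figure D2:**
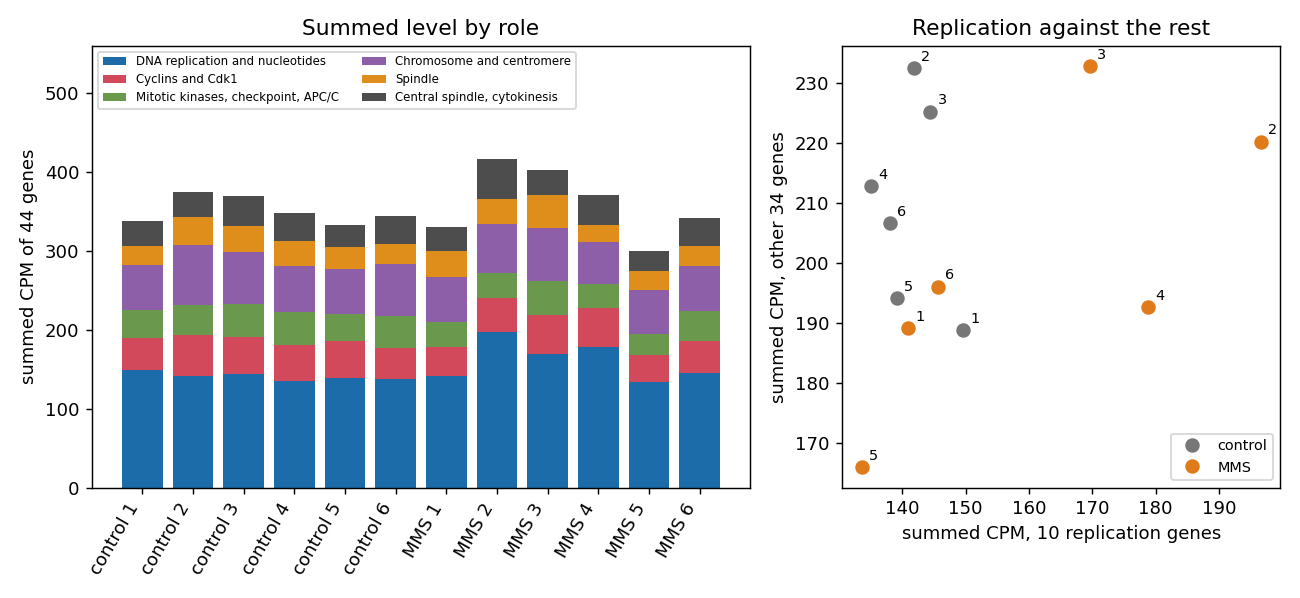
Left, summed CPM of the 44 genes in each of the 12 libraries, stacked by role. Right, summed CPM of the 10 replication genes (horizontal) against that of the other 34 (vertical), 1 numbered point per library, both axes not starting at 0, where MMS 2 (196.6 CPM), MMS 4 (178.8 CPM) and MMS 3 (169.6 CPM) lie to the right of every control.

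Cyclins and their kinase gave values on both sides of 0. Of the 6 genes, 2 had a fitted change above 0 and 4 below, with a median log2 fold change of -0.09. Cdk1, the kinase that drives entry into mitosis (chr10:69335146-69352938, minus strand), had 6.79, 8.39 and 13.5 CPM as lowest, median and highest control value, and 3.73, 7.80 and 10.6 CPM in MMS libraries. MMS 1 and MMS 5 were below every control and the other 4 within the control range. The means were 9.21 ± 2.54 CPM and 7.504 ± 2.38 CPM (SD, n = 6 each), with a log2 fold change of -0.30 (SE of 0.250, adjusted p = 0.693 by edgeR). With 1 library left out at a time it ranged from -0.42 without MMS 3 to -0.15 without MMS 5.

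Ccnb2, a B-type cyclin that binds Cdk1 (chr9:70407692-70421547, minus strand), rested on a mean of 13.2 counts per library. Lowest, median and highest values were 1.29, 2.69 and 4.62 CPM in controls and 1.96, 3.14 and 4.92 CPM under MMS, and only MMS 1 lay outside the control range. This gave a log2 fold change of 0.31 (SE of 0.352, adjusted p = 0.787 by edgeR) with an interval of -0.43 to 1.04, the widest on the side of a rise. Ccnb1, the other B-type cyclin, had a log2 fold change of -0.12, and all 6 MMS values lay within its control range.

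The promoters of Cdk1 and Ccnb2 are shown beside those of the replication genes because both join CCAAT with a CHR, a pair found in 62.2% of the members with a window and in 10.9% of all windows. Capitals mark CCAAT on either strand, TTTGAA, and in Cdk1 the E2F letters. Cdk1 (GRCm38.p6, chr10:69352863-69353162, minus strand) held 3 CCAAT, 2 TTTGAA and 2 E2F matches. Ccnb2 (chr9:70421505-70421804, minus strand) held 3 CCAAT and 2 TTTGAA, and none of the E2F letters.
Cdk1: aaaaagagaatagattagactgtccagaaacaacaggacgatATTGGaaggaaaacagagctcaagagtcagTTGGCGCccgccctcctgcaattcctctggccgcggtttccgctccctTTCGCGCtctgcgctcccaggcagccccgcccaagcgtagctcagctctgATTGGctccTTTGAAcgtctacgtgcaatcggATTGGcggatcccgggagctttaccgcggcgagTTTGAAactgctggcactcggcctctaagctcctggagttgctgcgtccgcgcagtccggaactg
Ccnb2: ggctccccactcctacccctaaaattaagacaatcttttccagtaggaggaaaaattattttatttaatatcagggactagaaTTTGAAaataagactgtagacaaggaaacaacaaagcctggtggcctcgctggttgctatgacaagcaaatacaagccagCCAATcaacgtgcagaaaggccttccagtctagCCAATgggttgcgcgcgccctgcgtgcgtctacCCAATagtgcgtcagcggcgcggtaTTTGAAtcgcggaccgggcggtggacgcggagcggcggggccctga

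Ccne1, an E-type cyclin that acts with Cdk2 at the start of S phase, had 11.1 to 17.4 CPM in controls and 9.67 to 15.1 CPM under MMS, and a log2 fold change of -0.05. Its interval of -0.41 to 0.31 was among those within 1.5-fold. Ccne2, its close relative, had a log2 fold change of 0.11, with MMS 1 at 1.87 CPM below and MMS 4 at 8.69 CPM above all controls. Ccna2, which serves S phase and early mitosis, had a log2 fold change of -0.15, with every MMS value within the control range. Ccne2 shares its 3' end with Ints8 and Ccna2 with Exosc9, both on the opposite strand.

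Mitotic kinases, checkpoint proteins and the anaphase-promoting complex (APC/C) had values mostly below 0. Of the 6 tested, 5 had a fitted change below 0 and 1 above, with a median log2 fold change of -0.23. Birc5, the survivin subunit of the chromosomal passenger complex (chr11:117849251-117855743, plus strand), had 8.15, 12.1 and 14.96 CPM as lowest, median and highest control value and 4.84, 9.41 and 15.8 CPM in MMS libraries. MMS 2 and MMS 4 were the lowest of all 12 libraries, below every control, while MMS 3 was the highest. On the log2 scale the fold change was -0.28 (± 0.253 SE, adjusted p = 0.719 by edgeR), and it was 0.00788 without both MMS 2 and MMS 4.

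Aurka, the kinase of the spindle poles, had a log2 fold change of -0.35 with an interval of -1.03 to 0.33. Cdc20, the activator of the APC/C that recognises its targets, had 4.35 to 5.50 CPM in controls. MMS 3, MMS 4 and MMS 5 lay below that range with 3.63, 3.19 and 2.55 CPM, and the log2 fold change was -0.28 (± 0.259 SE, adjusted p = 0.735 by edgeR). Bub1b, the checkpoint kinase homolog that inhibits the APC/C, had a log2 fold change of -0.19, and Ube2c, the ubiquitin-conjugating enzyme of the APC/C, one of -0.13. Plk1, the polo kinase of mitotic entry, had 0.0084. Cdc20 shares its 3' end with Elovl1 and Ube2c with Tnnc2 on the opposite strand.

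Among the 7 genes of chromosome structure and the centromere, 2 had a fitted change above 0 and 5 below, with a median log2 fold change of -0.18. Mki67, which coats mitotic chromosomes and encodes the proliferation antigen Ki-67 (chr7:135689784-135716361, minus strand), rested on a mean of 17.2 counts per library. Control libraries held 2.29, 3.93 and 6.54 CPM as lowest, median and highest value, and MMS libraries 1.96, 2.28 and 4.92 CPM. MMS 3, MMS 5 and MMS 6 were below every control, and the other 3 lay within the control range. The means were 4.44 ± 1.64 CPM and 2.84 ± 1.15 CPM (SD, n = 6 each). The log2 fold change was -0.65 (SE 0.330, 95% interval -1.33 to 0.04), and the edgeR adjusted p was 0.556. Without both MMS 2 and MMS 4 it was -0.645.

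Top2a, the topoisomerase that untangles sister chromatids (chr11:98992943-99024189, minus strand), is another common mark of dividing cells and was measured with a mean of 96.7 counts per library. Its lowest, median and highest values were 17.9, 21.1 and 33.97 CPM in controls and 14.7, 20.4 and 23.6 CPM under MMS. The MMS libraries lay among the controls except MMS 4, which was lowest of all, and control 2 was far above the rest. This gave a log2 fold change of -0.19 (± 0.169 SE, 95% interval -0.54 to 0.17, adjusted p = 0.725 by edgeR), and the value was -0.08 without both MMS 2 and MMS 4. The larger difference of Mki67 and the smaller one of Top2a were not tested against each other.

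Smc4, a core subunit of condensin (chr3:69004738-69034623, plus strand), had the largest positive value among tested members outside replication. It had 4.58, 7.504 and 11.1 CPM as lowest, median and highest control value and 7.26, 8.74 and 16.1 CPM in MMS libraries. MMS 2 at 16.1 CPM and MMS 4 at 11.5 CPM were the 2 libraries above every control. On the log2 scale the fold change was 0.40 (± 0.250 SE, adjusted p = 0.610 by edgeR), and 0.10 without both. Smc2, its partner in condensin, had a log2 fold change of -0.09, with 4 MMS libraries below every control and MMS 3 above them.

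The kinetochore genes showed no shared direction either. Cenpa, the histone H3 variant that marks centromeres, had a log2 fold change of -0.29, Cenpf, a large kinetochore protein, one of -0.18, and Cenpe, the kinetochore kinesin, one of 0.18. For Cenpe, MMS 2 and MMS 4 were the 2 highest of the 12 libraries, and the value was -0.25 without both.

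Spindle genes held the lowest value of the 36 tested members. Kif11, the motor that pushes the spindle poles apart (chr19:37376403-37421859, plus strand), rested on a mean of 12.1 counts per library. It had 1.48, 3.14 and 5.27 CPM as lowest, median and highest control value and 0.936, 2.13 and 2.73 CPM in MMS libraries. MMS 1 and MMS 6 were below every control, 4 MMS libraries overlapped with them, and none exceeded the control median. The means were 3.25 ± 1.24 CPM and 1.93 ± 0.808 CPM (SD, n = 6 each), and the log2 fold change was -0.73 (± 0.367 SE, 95% interval -1.49 to 0.03, adjusted p = 0.556 by edgeR). The value was -0.96 without both MMS 2 and MMS 4.

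Tpx2, which targets Aurora A to the spindle (chr2:152847964-152895321, plus strand), had 8.61, 11.2 and 13.6 CPM as lowest, median and highest control value and 3.90, 9.41 and 11.2 CPM in MMS libraries. MMS 4 was lowest of all, MMS 2 next, and the other 4 lay within the control range. The log2 fold change was -0.36 (± 0.232 SE, adjusted p = 0.620 by edgeR), and -0.12 without both MMS 2 and MMS 4. Tacc3, which steadies spindle microtubules, had a log2 fold change of 0.30, with MMS 3 at 20.6 CPM above all others, and of 0.09 without MMS 3. Nusap1, a microtubule binder near chromosomes, had one of 0.15.

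The 3 tested genes of the central spindle and cytokinesis had values near 0. Racgap1, part of the centralspindlin complex that places the cleavage furrow (chr15:99620496-99651656, minus strand), had 11.3, 14.0 and 15.1 CPM as lowest, median and highest control value and 10.8, 15.6 and 23.1 CPM in MMS libraries. MMS pups spread to both sides, with 4 libraries above every control, MMS 2 highest, and 2 below every control. This gave a log2 fold change of 0.17 (SE of 0.189, adjusted p = 0.782 by edgeR). Prc1, which bundles the microtubules of the central spindle, had a log2 fold change of 0.09, and Anln, the anillin of the contractile ring, one of -0.04. Prc1 shares its 3' end with Rccd1 on the opposite strand.

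**Figure D3:**
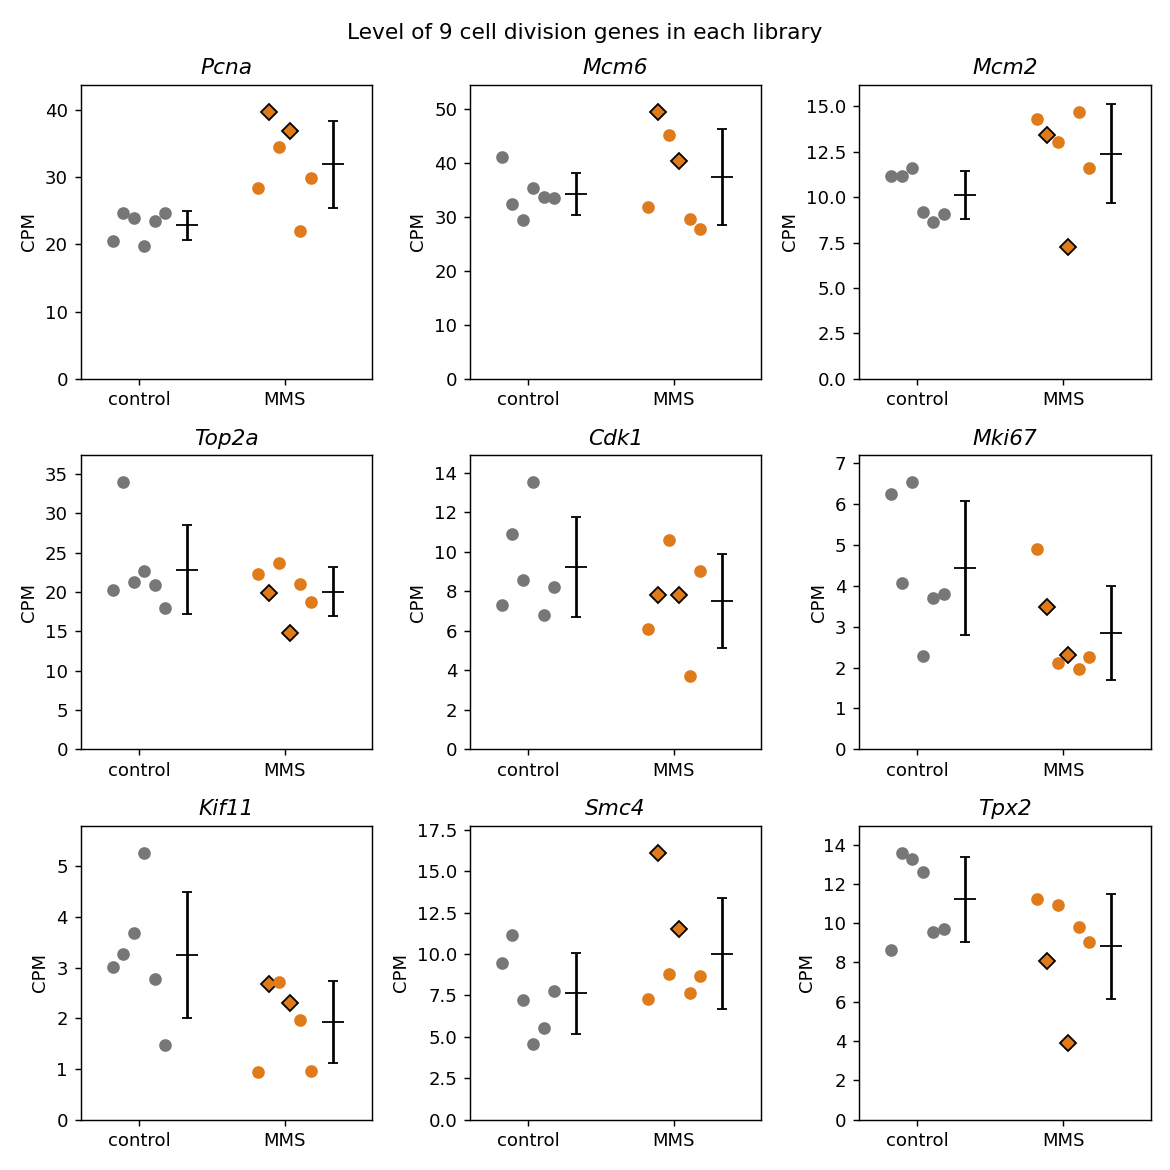
CPM in each library for Pcna, Mcm6, Mcm2, Top2a, Cdk1, Mki67, Kif11, Smc4 and Tpx2, with control libraries in grey, MMS libraries in orange, MMS 2 and MMS 4 as outlined diamonds, and the group mean with its SD (n = 6) beside the points. For Pcna, 5 MMS points lie above every control, and in all 9 panels the groups overlap.

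For the 8 genes under the count filter, values come from a fit of all 23550 genes with a count, and their errors were wide. Aurkb had a log2 fold change of -1.004 (SE of 0.6253, adjusted p = 0.616 by edgeR) and Hmmr, a spindle assembly factor, one of 0.88 (± 0.529 SE, adjusted p = 0.616 by edgeR). The count of Aurkb was 21 in control 2 and 15 in control 3 and at most 8 in any other library. Hmmr reached 5.64 CPM in MMS 2, and the other 11 libraries lay at 0.303 to 2.81 CPM. Bub1 had a log2 fold change of 0.42 and Kif20a, a kinesin of the central spindle, one of -0.45, both with a SE above 0.5. The other 4, Kif2c, Kif20b, Kif23 and Ect2, lay between -0.15 and -0.03.

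Summed over all 44 genes, the group means differed by less than the spread between libraries. Control libraries summed to 333.4 to 374.4 CPM and MMS libraries to 299.5 to 416.9 CPM. The means were 351.4 ± 16.8 CPM and 360.3 ± 44.9 CPM (SD, n = 6 each), a ratio of 1.03, and the MMS libraries lay on both sides of the controls. Left without MMS 2 and MMS 4, the MMS mean was 343.4 ± 43.2 CPM (n = 4), below the control mean. MMS 2 and MMS 3 were above every control, MMS 1 and MMS 5 below. The 34 genes outside replication summed to 210.1 ± 17.1 CPM in controls and 199.5 ± 23.8 CPM under MMS, a ratio of 0.95. Of their 26 tested genes, 9 had a fitted change above 0 and 17 below, with a median log2 fold change of -0.13.

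MMS 5 had the lowest sum of the 12 libraries for 4 of the 6 role groups and the second lowest for the other two, and its sum over all 44 genes, 299.5 CPM, was also the lowest. MMS 2 held the highest value of the 12 for 7 of the 36 tested genes, as did control 4, and MMS 3 for 5. The lowest value fell in MMS 1 for 7 genes and in MMS 5 for another 7. MMS 2 was highest for 3 replication genes and MMS 4 for 3 others. For 12 of the 36 genes the SD of the control libraries was below what counting alone gives at their mean count.

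**Figure D4:**
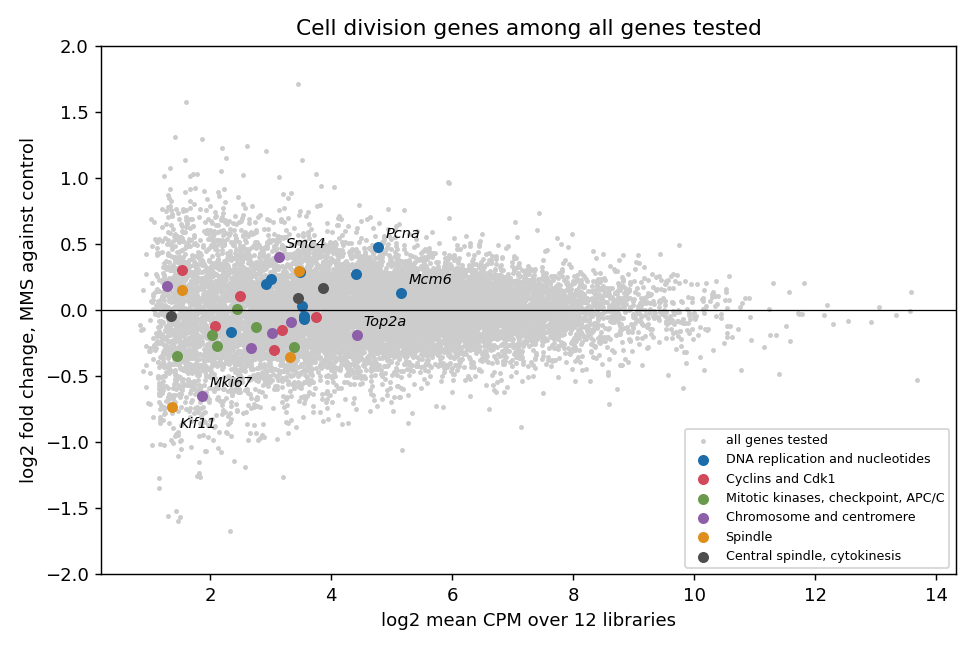
Log2 fold change of MMS against control (vertical, drawn from -2 to 2, 1 gene outside) against the log2 mean CPM over 12 libraries (horizontal) for 13104 genes in grey and the 36 tested cell division genes in color. The colored points lie within the grey cloud at all levels, with Pcna at 0.48 and Kif11 at -0.73 as the extremes.

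Genes that decide whether a cell enters the cycle were examined next to the members. The list held 17 genes, D-type cyclins, their kinases, E2F factors, pocket proteins and Myc genes, of which 15 were tested. The fitted change was above 0 for 6 and below 0 for 9, with a median log2 fold change of -0.18, and 0 passed the threshold. At an unadjusted p under 0.05 there were 3, all lower in MMS, against 4.4% of all genes tested.

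Ccnd2, the cyclin D that couples growth signals to the retinoblastoma protein in neural progenitors, was the gene of this list with the smallest p. Control libraries held 82.3, 85.7 and 102.6 CPM as lowest, median and highest value, and MMS libraries 43.2, 67.0 and 77.6 CPM. All 6 MMS libraries lay below all 6 controls, and MMS 2 and MMS 4 were the lowest. Groups without overlap, on either side, were found for 0.389% of all genes tested. The means were 90.3 ± 9.20 CPM and 63.8 ± 12.1 CPM (SD, n = 6 each). On the log2 scale the fold change was -0.51 (SE 0.126, 95% interval -0.77 to -0.24), and the edgeR adjusted p of 0.385 missed the threshold. Leaving out 1 library at a time gave log2 fold changes of -0.57 to -0.41, and the value was -0.36 without both MMS 2 and MMS 4.

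Cdk2 and E2f2 were the other 2 at that value and are named after their values were seen. Cdk2, the partner of E- and A-type cyclins, had 6.88 to 15.2 CPM in controls and 5.50 to 7.09 CPM under MMS, with a log2 fold change of -0.74 (SE of 0.216, adjusted p = 0.508 by edgeR). In the MMS group 5 libraries lay below every control. E2f2 had a log2 fold change of -0.70 (SE of 0.315, adjusted p = 0.543 by edgeR). Rb1, the retinoblastoma protein, had the smallest p among those above 0, with a log2 fold change of 0.20 (SE of 0.156, adjusted p = 0.670 by edgeR).

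The summed level of the 17 entry genes was 382.3 to 410 CPM in controls and 314 to 369.9 CPM in MMS libraries, and the groups did not overlap. Without Ccnd2 the sums were 292.1 to 318.5 CPM and 270.8 to 299.4 CPM, and without the 3 D-type cyclins 175.5 to 194.8 CPM and 161 to 183.6 CPM, and the groups overlapped both times. Without both MMS 2 and MMS 4 the MMS mean of the whole sum was 354.8 ± 13.9 CPM (n = 4), against 395.1 ± 10.2 CPM in controls (n = 6).

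**Figure D5:**
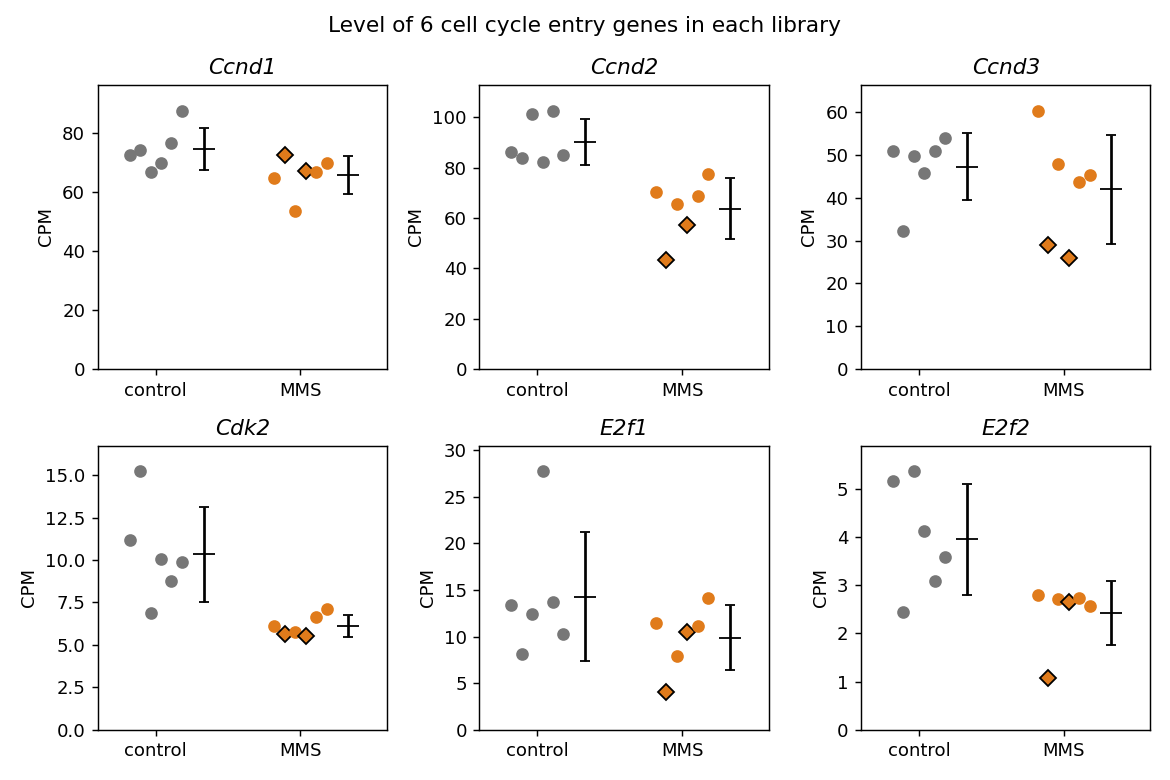
CPM in each library for the D-type cyclins Ccnd1, Ccnd2 and Ccnd3, for Cdk2, and for E2f1 and E2f2, drawn as in the panels of member genes with the group mean and SD (n = 6). Ccnd2 is the panel in which the groups do not overlap, with controls at 82.3 to 102.6 CPM and MMS libraries at 43.2 to 77.6 CPM.

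Among the brakes on the cycle, 0 genes passed the threshold. Of 9 tested inhibitors and antiproliferative genes, 3 had a fitted change above 0 and 6 below. Their median log2 fold change was -0.10, against -0.05 for the members. An unadjusted p under 0.05 was found for 0 of them, against 9.08% of all genes tested. Cdkn1a, the p53 target p21, was measured well at a mean of 141.6 CPM and had a log2 fold change of 0.17 (SE of 0.116, adjusted p = 0.630 by edgeR). Btg1, an antiproliferative gene of resting cells, had one of -0.36 (± 0.176 SE, adjusted p = 0.551 by edgeR). Of 11 tested regulators of S, G2 and M phase transcription, 5 had a fitted change above 0 and 6 below, with a median of -0.04. Lin9, a subunit of the MuvB core, had a log2 fold change of -0.61 (SE of 0.309, adjusted p = 0.556 by edgeR) and Nfyc, a subunit of NF-Y, one of 0.29 (± 0.207 SE, adjusted p = 0.650 by edgeR). Foxm1, the forkhead factor of G2 and M phase genes, had -0.21.

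Another 17 tested replication genes outside the members had a median log2 fold change of 0.03, with 11 above 0 and 6 below. Rpa2, a subunit of the single-strand binding protein, had the smallest p among those below 0, with a log2 fold change of -0.44 (SE of 0.181, adjusted p = 0.543 by edgeR). Cdc45, which joins the MCM helicase at the fork, had the largest positive value of 0.66 (± 0.367 SE, adjusted p = 0.582 by edgeR). Another 16 tested mitosis genes had a median of -0.13, with 3 above 0 and 13 below. Cdc25b, the phosphatase that activates Cdk1, had -0.56 (± 0.211 SE, adjusted p = 0.543 by edgeR) and Incenp, the scaffold of the chromosomal passenger complex and named after its value was seen, -0.49 (± 0.188 SE, adjusted p = 0.543 by edgeR). Cdca3 came first by p among the 3 mitosis genes above 0. It changed by 0.25 log2 units (SE 0.255), and 0.755 was its edgeR adjusted p. The log2 values were -0.23 for Rpa2, -0.27 for Incenp and 0.46 for Cdca3 without both MMS 2 and MMS 4.

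MMS 2 and MMS 4 stood apart in some of these further genes. Among the 25 further replication genes, Orc6, Rfc3 and Rfc4 were examples above the other 10 libraries in both, and Lig1 and Rpa2 were below. Lig1, the ligase that joins Okazaki fragments, was at 62.0 CPM in MMS 2 and 53.03 CPM in MMS 4, where the other 10 libraries held 124.5 to 157.0 CPM. All 25 summed to 299.8 CPM and 291.8 CPM, against 346.7 to 399.3 CPM, while the 24 without Lig1 summed to 237.7 CPM and 238.7 CPM, within the 217.0 to 247.5 CPM of the other 10. Of the 32 further mitosis genes, 5 were below the other 10 libraries in both (Cdca5, Incenp, Ncapd2, Pttg1 and Sgol1) and none above. The share of all genes that stood apart in this way was not counted, so these counts have no background beside them. Pttg1, the securin that holds sister chromatids together, was at 41.4 CPM and 46.3 CPM there, against 74.7 to 103.3 CPM in the other 10. The 32 summed to 172.7 CPM and 187.1 CPM, against 249.9 to 291.3 CPM, and without Pttg1, Ncapd2 and Incenp to 102.1 CPM and 111.9 CPM, against 111.6 to 141.3 CPM. By group, the sum of the 32 was 270.9 ± 14.7 CPM in controls and 243 ± 50.9 CPM under MMS (SD, n = 6 each). Without both MMS 2 and MMS 4 the MMS mean of that sum was 274.5 ± 17.7 CPM (n = 4), above the control mean. In the same libraries the 10 replication members summed to 196.6 CPM and 178.8 CPM, above the 133.6 to 169.6 CPM of the other 10. These further genes are named after their values were seen, and the sums of young neuron and ependymal markers were low in the same 2 libraries, as given above. The part of those markers in these values was not tested.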

How the data were processed

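Hypothalamic RNA of 12 mouse pups was sequenced with a 3' mRNA kit, and the authors deposited raw counts per gene, aligned to mm10, with no normalization. Counting tool, strand setting and gene annotation were not given in the sources used here. Libraries were grouped by their titles. In 27 rows the symbol had become a date, and these stayed unnamed. Counts were tested with edgeR 4.0.16 in R 4.3.3 (quasi-likelihood test, robust, TMM scaling, default count filter with a minimum count of 10), and two-sided p-values were adjusted by the Benjamini-Hochberg method over 13104 genes. The SE is the log2 fold change divided by the square root of its F statistic, and intervals are 95%. CPM used the same scaling. Sums over genes and non-overlap were described without a test. Zero limits (3 counts) cover counting error only. The script was tested on simulated data.

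The 44 members, the role groups and the other lists were chosen with earlier results of these data known. Named members were those with the smallest p in each role, the 3 largest changes in each direction with a mean of at least 10 counts, the 3 highest and 3 lowest mean levels, and Mki67, Top2a, Cdk1 and Pcna, with other members given by value. Of each further list the smallest p in each direction was named. Hypothalamic marker genes were added later. Positions come from GENCODE M21, which matched 39443 of 43278 symbols, and overlaps were searched in the last 1000 bases of a gene. Between replicates the chi-square per degree of freedom over 30 pairs was 4.04 to 31.5, so all libraries counted separately. Alternatives were DESeq2 1.42.0, limma-voom (limma 3.58.1), RLE scaling, no filter, a mean of at least 50 counts, the replicate number as a block, leaving out each library, and leaving out MMS 2 and MMS 4.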

Additional observations from a re-analysis of the deposited data

Results flagged for a closer look

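Over 86 sets of 6 values, the sets being a gene or a sum in 1 group, 3 had a single library far from the other 5 by Dixon's test, where chance gives about 4.3. Ccnb1 stood at 6.98 CPM in MMS 2, where the other 5 MMS libraries had at most 4.24 CPM, still within the control range of 2.53 to 7.34 CPM. Plk1 stood at 4.17 CPM in control 5, below the 5.38 to 5.98 CPM of the other controls. Top2a stood at 33.97 CPM in control 2, where the other controls had at most 22.7 CPM. Without control 2 the log2 fold change of Top2a was -0.04, the smallest size over the fits that left out 1 library.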

How the results depend on the processing

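No member passed an adjusted p of 0.05 under any alternative run. Of 227 values of single members under the alternatives that kept or dropped a fixed set of libraries or genes, 212 kept their sign, as did 412 of 432 with 1 library left out. Over all genes the count past the threshold was 0, against 7 with DESeq2, 1 with no count filter, 1 with the replicate block and 5 without both MMS 2 and MMS 4. Members at an unadjusted p under 0.05 were 2 with the replicate block (Pcna and Kif11, against 9.34% of all genes). Without both MMS 2 and MMS 4 they were 3 (Pcna, Kif11 and Mcm2, against 5.03% of all genes). There 1 member, Mcm2, had groups that did not overlap, and the share over all genes was not counted at that setting. With a mean of at least 50 counts, which left 11 members, their median log2 fold change was 0.0912. Signs turned in limma-voom for Ccne2 (-0.0213) and Plk1 (-0.154), and with the block for Mcm5 (-0.00153) and Plk1 (-0.0594). Without both MMS 2 and MMS 4 they turned for Mcm5 (-0.0977), Mcm6 (-0.0264), Rrm2 (-0.0701), Ccne1 (0.03), Ccne2 (-0.167), Birc5 (0.00788), Smc2 (0.0274), Cenpe (-0.245), Prc1 (-0.155), Racgap1 (-0.0647) and Anln (0.0857). The cause was not tested.

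With 1 library left out, the count over all genes was 0 to 1, with 1 without MMS 2 or MMS 4. Members at an unadjusted p under 0.05 were 1 to 2, against 5.27% (without MMS 2) to 13.6% (without MMS 5) of all genes tested. Pcna was among them each time, joined by Mki67 without control 4 or MMS 1 and by Kif11 without control 6, MMS 2 or MMS 3. Mcm2 joined it without MMS 4 and Rrm1 without MMS 5. Members without overlap were 0 to 1, which were Kif11 without control 6, Mcm2 without MMS 4 and Pcna without MMS 5. A lack of overlap is easier to reach with fewer libraries, and the share over all genes was not counted for these fits. The median of the members was -0.0731 to 0.00167, that of the entry genes -0.199 to -0.0938 and that of the inhibitors -0.182 to 0.0719. Signs turned for Anln (-0.147 to 0.129), Ccnb1 (-0.33 to 0.0651), Ccne1 (-0.1 to 0.0312), Ccne2 (-0.0528 to 0.304), Mcm4 (-0.134 to 0.0412), Mcm5 (-0.0453 to 0.143), Mcm7 (-0.0975 to 0.0208), Plk1 (-0.0878 to 0.215) and Prc1 (-0.0277 to 0.181). Of the 36 tested members, the values of 32 turned or moved by more than 1.5 times with some library left out. Correlations of same-numbered libraries were -0.04 to 0.12, and 2 of 6 controls matched their own number best. These values cannot decide whether replicate numbers pair littermates, since a weak litter effect could give them too. The 8 members under the filter, with means up to 10.6 counts, could not be told from large changes at this depth.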
